A study of Sus scrofa with 30 samples.

Results

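The 45 autophagy and lysosome genes examined here are a chosen set of genes that build autophagosomes, deliver them to the lysosome and break their contents down. They were chosen by function: 5 genes of the initiation complex, 5 of nucleation and membrane supply, 7 of the conjugation machinery, 4 of the ATG8 family, 3 cargo receptors, 3 genes of fusion, ion release and transcriptional control, 4 of the lysosomal membrane and cholesterol export, 9 cathepsins and 5 other hydrolases and activators. All 45 were found among the 14951 annotated genes of the table, which also holds 11061 assembled loci without an annotated gene, 26012 genes and loci in all. The level of a gene is the sum of its transcripts, and the 45 genes have 133 of the 61773 transcripts. The samples are mammary parenchyma of multiparous half-sibling Danish Landrace × Yorkshire sows, from 1 gland of each sow. The 5 stages were mid-gestation (MG, day 70), late gestation (LG, day 110), early lactation (EL, day 2 postpartum), peak lactation (PL, day 10 postpartum) and the start of involution (W2, 2 days from weaning), with 6 different sows each.

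In macroautophagy, a kinase complex around ULK1 and a lipid kinase complex around BECN1 start a membrane that closes around cytoplasm. Ubiquitin-like conjugation enzymes attach proteins of the ATG8 family to this membrane, and cargo receptors tie their load to it. The closed vesicle fuses with a lysosome, whose acid hydrolases digest the contents, while TFEB switches on many genes of both systems. In the mammary gland the lysosome is also known for its part in the loss of secretory cells after weaning, when cathepsins and lipid-laden vacuoles appear in the epithelium.

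Values are FPKM as the authors call them, but the samples add up to nearly equal totals (997480 to 1002643), as TPM does, so a value is called a unit and is a share of the sample's total per length. Of the 6 samples of each stage, 3 were near-identical to each other (largest median difference of any pair 1.80 to 1.85%, against 19.6 to 59.8% among the others). Their mean differed from the mean of the others by a median of 0.688 to 0.741% over transcripts. These near-identical samples were not counted, which left n = 3 per stage and 15 samples. The groups follow the sample names. In another field of the sample records the stage names of the MG and EL samples are exchanged. The share of 6 milk protein genes ran from 1.19 to 2.95% in the samples titled MG and from 6.40 to 12.1% in those titled EL. PL 2 stood apart from PL 3 and PL 6. It held the lowest value of the 15 samples for 31 of the 45 members (68.9%) and for 53.4% of annotated genes of at least 1 unit. The 6 milk protein genes (CSN1S1, CSN1S2, CSN2, CSN3, LALBA and WAP) together took 28.5% of PL 2, 13.9% of PL 3, 9.14% of PL 6 and 0.579 to 0.816% of the W2 samples. Results are therefore given for the values as deposited, after median ratio scaling, and without PL 2. Median ratio scaling divides each sample by the median ratio of 3521 genes with at least 10 units in every sample, on the log2 scale from -0.82 (PL 2) to 0.36 (W2 6). The labelled tissue was seen in its markers: 6 of 6 luminal epithelial genes were in the table, with sums of 837 to 1992 units per sample. In such bulk tissue, fewer cells of a type and less RNA per cell cannot be told apart.

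Most members were expressed at every stage, over a wide range of levels. GABARAP, an ATG8 protein, was the highest (265 to 535 units), followed by the carboxypeptidase CTSZ (164 to 425), the saposin precursor PSAP (134 to 314), the cysteine protease CTSB (43.4 to 389) and the membrane glycoprotein LAMP1 (60.2 to 180.3). The ranges of CTSZ, PSAP and CTSB overlapped, so their order is not firm. At the low end, ATG12 had 0.192 to 1.97 units, ULK2 0 to 4.65 and LAMP2 0.890 to 7.95, although LAMP1 and LAMP2 are similar proteins of the same membrane. GAA, the enzyme that degrades lysosomal glycogen, was listed at 0 in 10 of the 15 samples and reached 2.82 units in EL 4 alone. Reads of a member can also lie in the assembled loci, which the table does not assign to genes, and this was not tested. Together the 45 members held 0.230 to 0.304% of the units of 14 samples and 0.150% of PL 2, where their median level was also the lowest (3.57 on the log2 scale, against 4.27 to 4.92).

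**Figure D1:**
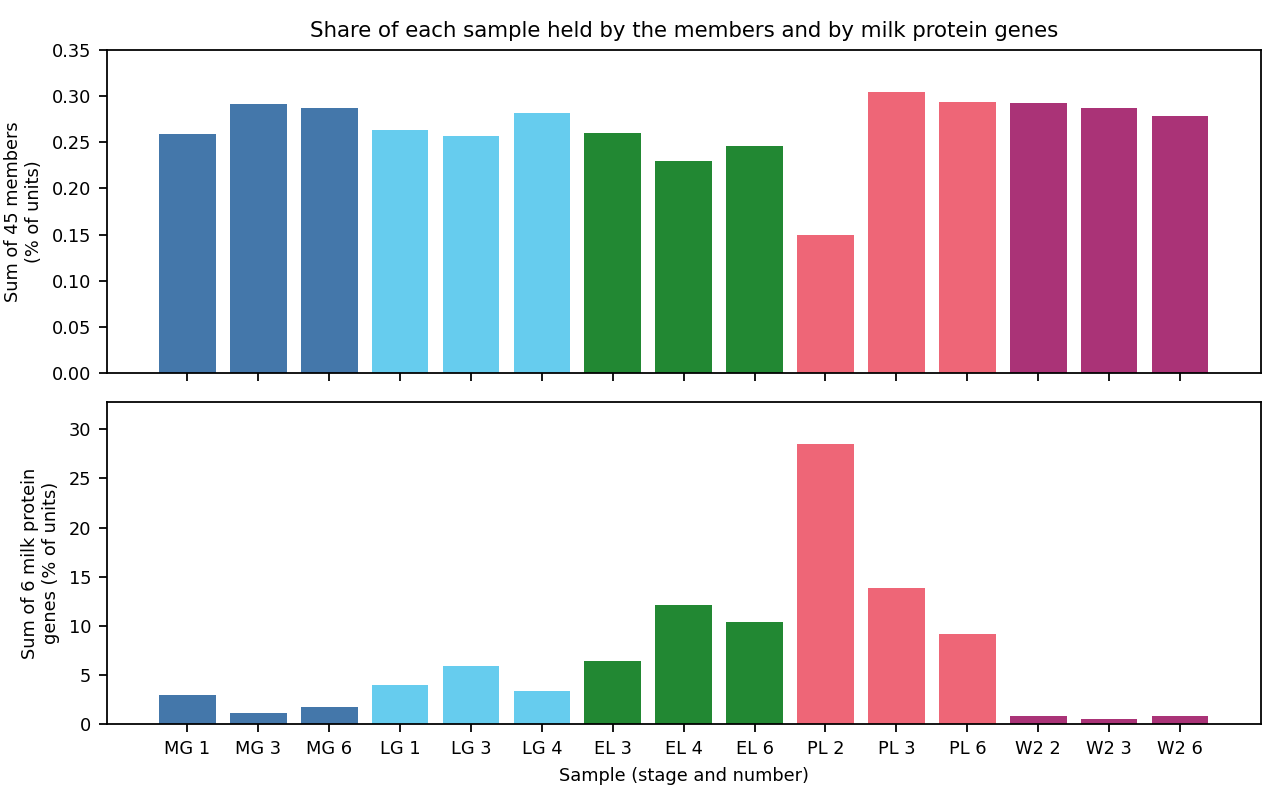
Share of each of the 15 counted samples, in percent of its units, held by the 45 members (upper bars) and by the 6 milk protein genes (lower bars), by stage and sample number. The members' share is lowest in PL 2 (0.150%), the sample with the largest milk protein share (28.5%).

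Across the 5 stages, 5 of the 45 members passed the limma F test at an adjusted p below 0.05 (background 18.3% of all genes and loci): the cholesterol carrier NPC2 (adjusted p = 0.0181), the transcription factor TFEB (0.0302), the conjugation enzyme ATG7 (0.0316), CTSZ (0.0321) and BECN1 (0.0437). After median ratio scaling 7 passed (background 8.17%). The calls between stages lay in the comparisons with PL. For W2 vs PL, 12 members were higher (background 30.4%) and 1 was lower (background 2.48%), and the median log2 fold change was 0.44 over the members against 0.77 over 12352 annotated genes of at least 1 unit. For PL vs MG, 7 were lower (background 23.0%) and 1 higher (background 2.23%), with a median of -0.38 against -0.67. For PL vs LG, 3 were lower (background 13.1%) and 1 higher (background 1.62%), and for PL vs EL 1 was lower (background 3.85%) and 1 higher (background 0.777%). In each of these 4 comparisons the share of members called as lower at PL than at the other stage lay below the background. These comparisons share the PL samples. The study's rule for transcripts also asks for a log2 fold change of 2 or more in either direction. Applied here to gene sums in limma, it was passed by ATG4B and ATG14 for W2 vs PL (background 5.22%). The single transcript of ATG14 did not pass in the limma fit of transcripts (adjusted p = 0.0801).

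The other 6 comparisons gave no called member in limma. The background of calls there was 0.0115% (LG vs MG), 0.0269% (EL vs MG), 0.0115% (W2 vs MG), 0.0154% (EL vs LG), 0.0346% (W2 vs LG) and 0.554% (W2 vs EL). At an unadjusted p below 0.05 they had 0 members for LG vs MG (4.43% of all genes and loci), 3 for EL vs MG (15.9%), 1 for W2 vs MG (3.09%), 2 for EL vs LG (6.19%), 3 for W2 vs LG (7.57%) and 10 for W2 vs EL (25.1%). All stages share 1 estimate of the spread in the fit, and without PL 2, which belongs to neither stage, 15 members were higher (background 16.0%) and 2 lower (background 1.02%) for W2 vs EL. The 15 covered most roles: ATG101 of initiation, BECN1 and WIPI2 of nucleation, ATG5 and ATG7 of conjugation, GABARAP and GABARAPL2 of the ATG8 family, SQSTM1 and OPTN of the receptors, RAB7A, TFEB and LAMP1, the cathepsins CTSA and CTSC, and LIPA. LAMP1 was at 0.51 (adjusted p = 0.0172) and SQSTM1 at 0.59 (adjusted p = 0.00790), and their EL and W2 samples did not overlap. NBR1 and CTSZ were lower, at -0.56 (adjusted p = 0.0199) and -0.74 (adjusted p = 0.0335). With median ratio scaling and without PL 2, 0 members were higher (background 0.815%) and 3 lower (background 0.950%) in limma, and 11 had an unadjusted p below 0.05 (16.3% of all), so the direction for W2 vs EL also depended on the scaling.

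The direction of the members' calls depended on the scaling. After median ratio scaling, 8 members were higher for PL vs MG (background 5.04%), 6 for PL vs LG (background 3.79%) and 6 for PL vs EL (background 2.54%). None was called lower in limma, where the backgrounds were 5.97%, 5.14% and 2.71%, and 19, 17 and 15 members had an unadjusted p below 0.05 in either direction (25.0%, 23.2% and 18.7% of all genes and loci). For W2 vs PL, 1 member was higher (ATG7, background 7.42%) and 8 were lower (NPC2, HEXA, NPC1, OPTN, GLB1, GABARAPL1, NBR1 and LAMP2, background 5.66%). The stage with the highest mean was W2 for 27 of 45 members as deposited (60.0%, against 54.1% of the 12352 genes) and PL for 26 of 45 after scaling (57.8%, against 31.2%). Without PL 2, as deposited, 9 members were higher (background 22.9%) and 4 lower (background 3.88%) for W2 vs PL, and 5 were higher (background 3.82%) and 3 lower (background 16.7%) for PL vs MG. With both changes together, 14 were lower for W2 vs PL (background 7.60%) and 0 higher in limma (background 7.22%), with 23 members at an unadjusted p below 0.05 (27.9% of all). The scaling moved the median of all genes for W2 vs PL from 0.68 to 0.09 on the log2 scale over the 26012 genes and loci. Which of these scales describes the tissue was not tested.

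**Figure D2:**
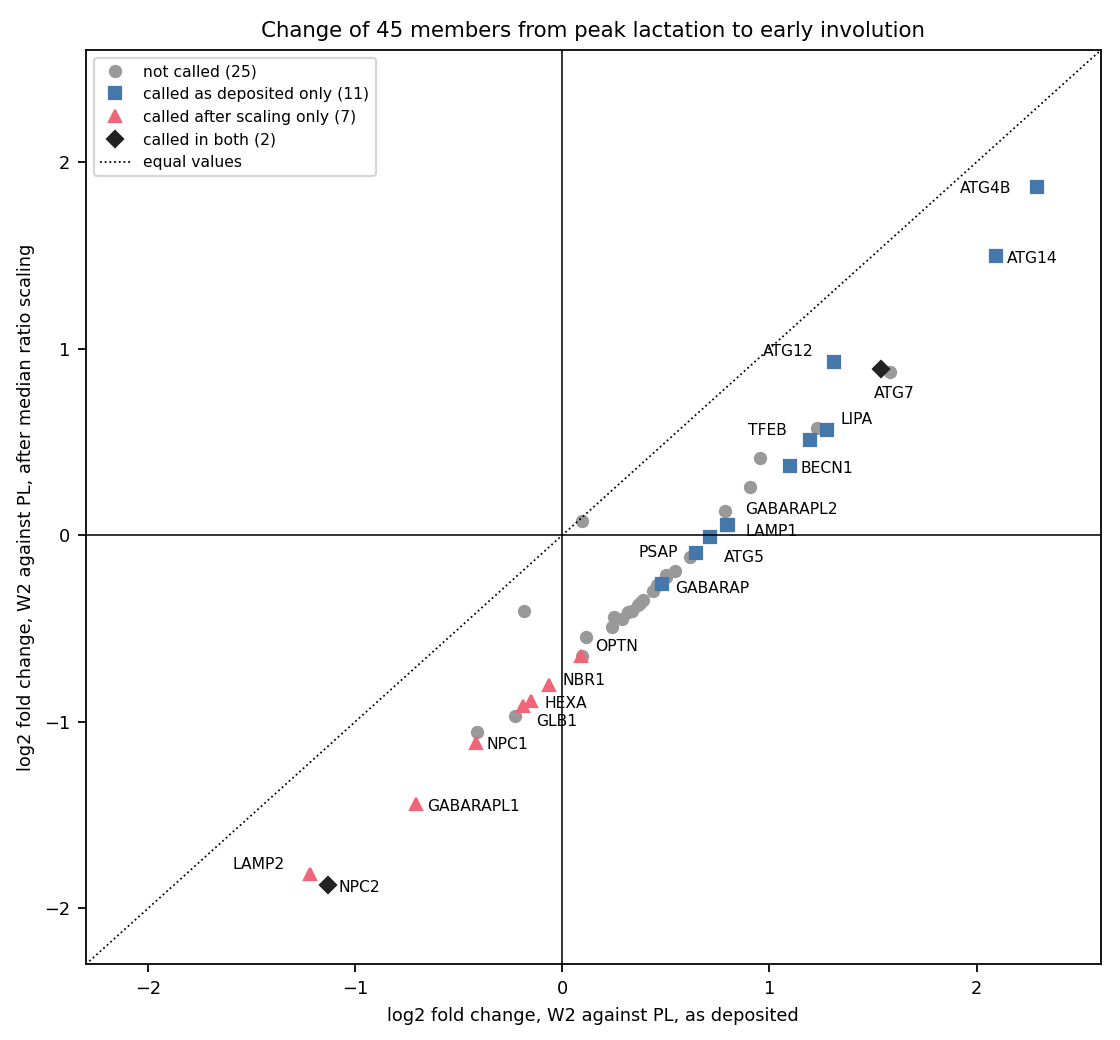
Each point is 1 of the 45 members. The x axis is its log2 fold change from PL to W2 as deposited and the y axis the same after median ratio scaling, with symbols for the calls at an adjusted p below 0.05. ATG7 and NPC2 are called on both scales, 11 members as deposited only and 7 after scaling only. Most points lie below the dotted line of equal values. The scaling divides whole samples, and it lowered the median of all 26012 genes and loci from 0.68 to 0.09.

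**Figure D3:**
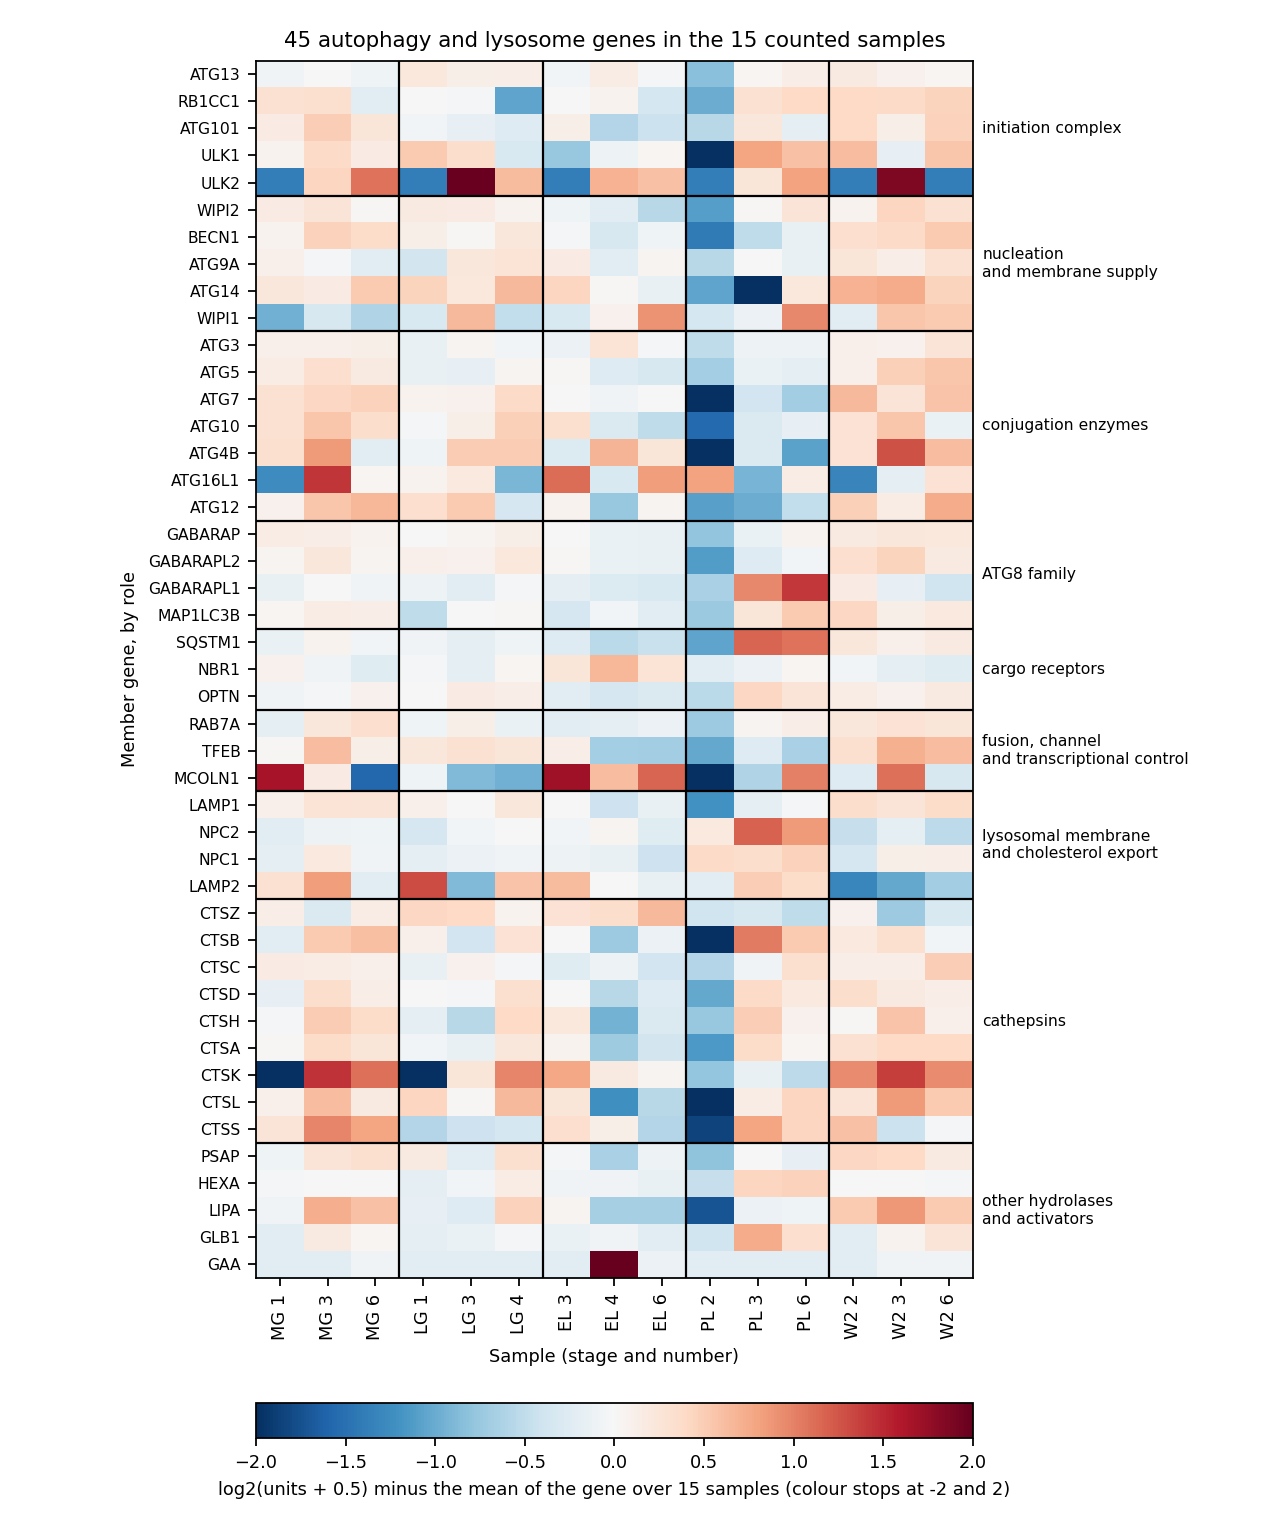
Log2(units + 0.5) of the 45 members in the 15 counted samples, each gene centred on its own mean, with red above and blue below it. Rows are grouped by role and columns by stage. PL 2 is blue in most rows, while PL 3 and PL 6 are red for NPC2, SQSTM1 and GABARAPL1, and W2 is mostly light red.

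NPC2, the soluble protein that carries cholesterol out of the lysosome (chromosome 7, 97730532 to 97740087 on Sscrofa11.1), was high at PL and lower after weaning. Its values were 95.1, 104 and 104 units in MG, 87.8, 107 and 111 in LG, 107, 116 and 93.7 in EL, 127, 253 and 200.1 in PL and 80.2, 97.4 and 77.6 in W2. All 3 PL samples, PL 2 included, lay above the other 12. This was so for 2 of the 45 members, NPC2 and NPC1 (background 1.10% of genes and loci). NPC2 was higher for PL vs MG (log2 fold change 0.88 ± 0.21 SE, adjusted p = 0.0117) and PL vs LG (0.88, adjusted p = 0.0179), and lower for W2 vs PL (log2 fold change -1.13 ± 0.21 SE, adjusted p = 0.00228). After median ratio scaling the W2 vs PL value was -1.87 (adjusted p = 3.83e-05), and without PL 2 -1.41 (adjusted p = 0.000177). With each of the 15 samples left out in turn, the W2 vs PL call was kept 15 times (adjusted p up to 0.0118). For PL vs LG it was lost without LG 1 (adjusted p = 0.0693). PL vs EL passed narrowly (0.82, adjusted p = 0.0480), and that call was lost in 14 of the 15 fits (adjusted p up to 0.158) and kept without PL 2. NPC2 has 1 transcript in the table.

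NPC1, the membrane protein that takes cholesterol from NPC2, had far lower levels and was also highest at PL: 4.83, 6.46 and 5.29 units in MG, 4.88, 5.11 and 5.30 in LG, 5.16, 4.98 and 4.09 in EL, 7.41, 7.26 and 7.86 in PL and 4.34, 6.13 and 6.22 in W2. The 3 PL values lay within 7.26 to 7.86 units, above the other 12. As deposited it was not called for W2 vs PL, at -0.42 (adjusted p = 0.118). After scaling it was called (-1.11, adjusted p = 0.00259). LAMP1 went the other way. Its values were 149, 169.9 and 168 units in MG, 150.0, 141 and 164 in LG, 141, 105 and 126 in EL, 60.2, 124 and 137 in PL and 179, 168 and 180.3 in W2, and PL 2 held the lowest value. LAMP1 was higher for W2 vs PL as deposited (log2 fold change 0.80 ± 0.24 SE, adjusted p = 0.0256), but the call was lost without W2 2, W2 3 or W2 6 (adjusted p 0.0616, 0.0553 and 0.0685), and after scaling the value was 0.06 (adjusted p = 0.835). LAMP2 had 3.73, 5.61 and 2.43 units in MG, 7.95, 1.37 and 4.57 in LG, 4.80, 2.94 and 2.61 in EL, 2.43, 4.31 and 3.92 in PL and 0.890, 1.19 and 1.61 in W2. W2 had the lowest mean of the 5 stages, and its samples did not overlap with those of PL. Its W2 vs PL value was -1.22 (adjusted p = 0.0712) as deposited and -1.81 (adjusted p = 0.0188) after scaling. Of the 4 genes of this group, 1 was higher (background 30.4%) and 1 lower (background 2.48%) for W2 vs PL as deposited. After scaling 3 were lower (background 5.66%).

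**Figure D4:**
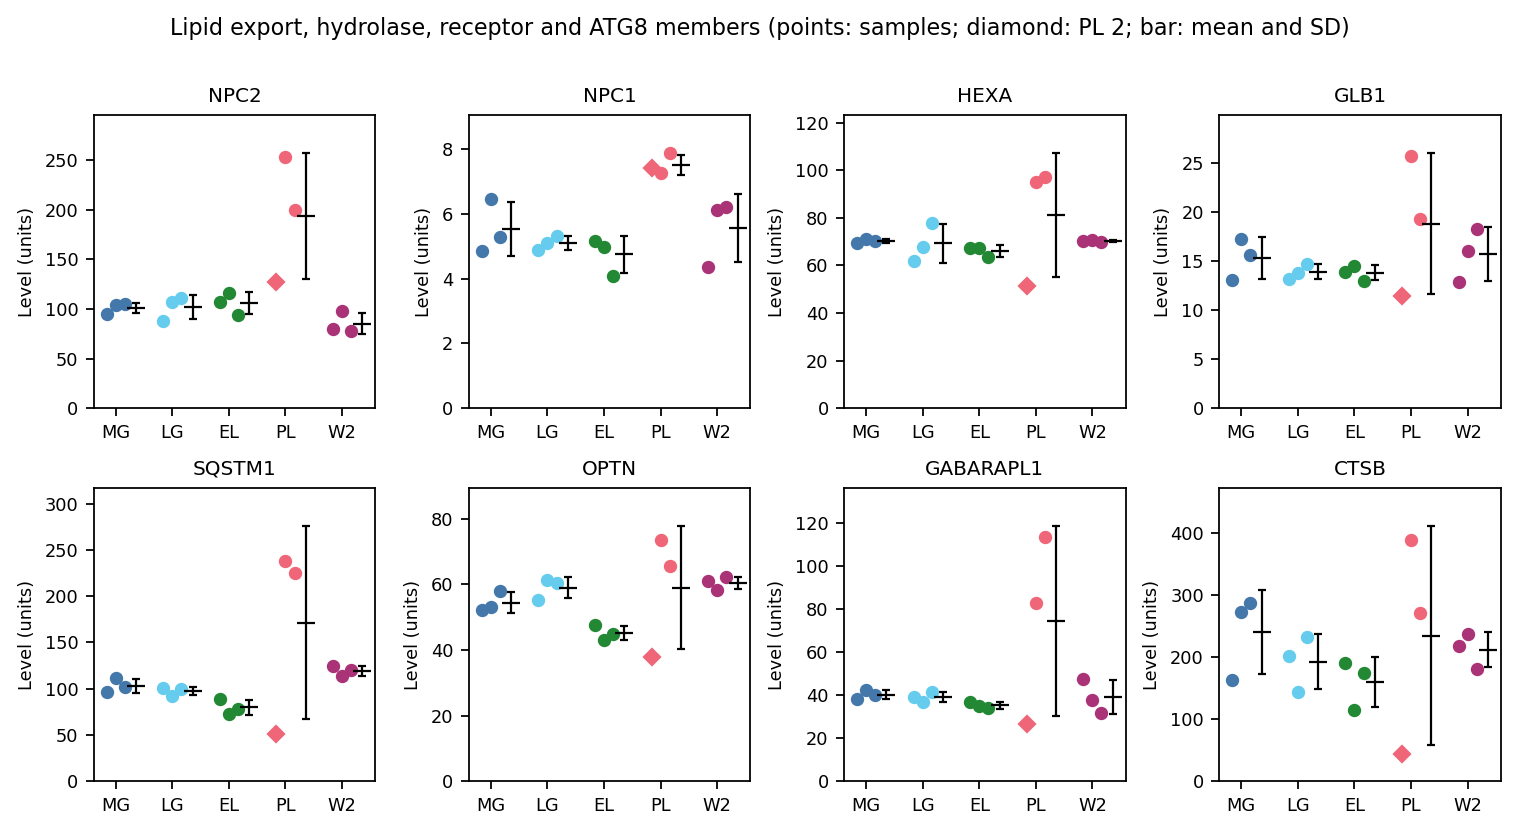
Levels in units, on axes from 0, of 8 members in each counted sample by stage. Points are samples, the diamond is PL 2, and bars give mean and SD (n = 3). PL 3 and PL 6 lie above the other 13 samples for NPC2, SQSTM1, GABARAPL1, HEXA, GLB1 and OPTN, while PL 2 lies among or below the rest except for NPC2 and NPC1.

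The 3 cargo receptors had no call as deposited for PL vs MG, PL vs EL or W2 vs PL (unadjusted p below 0.05 for 0, 1 and 0 of 3). Of all genes and loci, 25.2%, 4.62% and 32.8% were called in limma. The shares at an unadjusted p below 0.05 were 38.3%, 19.0% and 44.0%. The PL samples disagreed for 2 of them. SQSTM1, also called p62, which links ubiquitinated cargo to the ATG8 proteins, was picked after its values were seen. It had 96.2, 111 and 102 units in MG, 101, 92.2 and 99.7 in LG, 88.9, 72.6 and 77.8 in EL, 51.0, 238 and 225 in PL and 124, 114 and 121 in W2. PL 3 and PL 6 were the 2 highest samples by a wide margin, and PL 2 was the lowest of the 15. Its PL vs MG value was 0.44 (adjusted p = 0.481) as deposited, 1.10 (adjusted p = 0.0462) after scaling and 1.16 (adjusted p = 8.73e-05) without PL 2, so PL 2 decides the call as deposited. OPTN, a receptor for damaged mitochondria and bacteria, ran in the same way at smaller size, with 37.8, 73.4 and 65.6 units in PL and 43.2 to 62.1 elsewhere. NBR1, which also binds ubiquitinated cargo, differed from both. It was highest in EL, at 125, 166 and 128 units, and had 90.2, 96.8 and 108 in PL and 101, 92.2 and 88.9 in W2. For W2 vs EL its value was -0.56 (adjusted p = 0.0794) as deposited and -0.96 (adjusted p = 0.0482) after scaling, and the samples of the 2 stages did not overlap. All 3 receptors were higher for PL vs MG after scaling (background 5.04%).

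Among the 4 ATG8 family proteins, which coat the autophagosome membrane, GABARAPL1 had the widest split between PL 2 and the other PL samples. GABARAPL1 had 38.1, 42.5 and 40.2 units in MG, 39.3, 36.7 and 41.7 in LG, 36.8, 34.8 and 34.1 in EL, 26.7, 83.1 and 114 in PL and 47.5, 37.8 and 31.9 in W2. In PL 3 and PL 6 it was above the other 13 samples, and in PL 2 below them. Its W2 vs PL value was -0.71 (adjusted p = 0.178) as deposited, -1.44 (adjusted p = 0.00756) after scaling and -1.32 (adjusted p = 0.000407) without PL 2. PL 3 and PL 6 were the 2 highest of the 15 samples for 6 of the 45 members: GABARAPL1, SQSTM1, NPC2, OPTN, HEXA and GLB1 (background 4.24%). GABARAP had 507, 505 and 483 units in MG, 458, 479 and 499 in LG, 461, 417 and 413 in EL, 265, 420.1 and 482 in PL and 517, 535 and 530.1 in W2. W2 lay above PL (log2 fold change 0.48 ± 0.17 SE, adjusted p = 0.0486), but this call was lost in 13 of the 15 fits that left out 1 sample (adjusted p up to 0.109), and the sign turned after scaling (-0.26, adjusted p = 0.0666). GABARAPL2 had 114, 129 and 115 units in MG, 118, 117 and 127 in LG, 111, 101 and 99.0 in EL, 50.6, 91.5 and 105 in PL and 139, 149 and 124 in W2. It was higher for W2 vs PL (log2 fold change 0.80 ± 0.21 SE, adjusted p = 0.0143), lost without W2 3 (adjusted p = 0.0513), and the value was 0.06 (adjusted p = 0.821) after scaling. MAP1LC3B, the usual marker protein of autophagosomes, had 16.6, 33.5 and 40.5 units in PL and 37.8, 30.6 and 32.4 in W2, with a W2 vs PL value of 0.24 (adjusted p = 0.528). It ran like GABARAPL1 at smaller size, with PL 6 its highest and PL 2 its lowest sample. After scaling it had 29.3, 39.9 and 48.3 units in PL, and PL 3 and PL 6 lay above the other 13 samples.

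Of the 7 conjugation enzymes, 5 were lower for PL vs MG (background 23.0%) and 4 higher for W2 vs PL (background 30.4%), with medians of -1.08 and 0.91 against -0.67 and 0.77 over 12352 genes. Of those 12352 genes, 4076 were lower for PL vs MG and 5079 higher for W2 vs PL. Without PL 2, 2 of 7 were lower for PL vs MG (ATG7 and ATG12, background 16.7%), and the same 4 were higher for W2 vs PL (background 22.9%). ATG7 activates ATG12 and the ATG8 proteins (chromosome 13, 67301756 to 67699141). It had 8.48, 9.19 and 9.54 units in MG, 7.14, 7.24 and 9.01 in LG, 6.68, 6.39 and 6.76 in EL, 1.23, 5.07 and 4.00 in PL and 10.8, 8.21 and 10.3 in W2. All 3 PL values lay below the other 12, which held for 2 of the 45 members, ATG7 and ATG4B (background 11.3%). The level was 3.44 ± 1.98 units in PL and 9.79 ± 1.39 in W2 (mean ± SD, n = 3). ATG7 was higher for W2 vs PL (log2 fold change 1.54 ± 0.34 SE, adjusted p = 0.00541), and it kept this call after scaling (0.89, adjusted p = 0.0478), without PL 2 (1.03, adjusted p = 0.00177) and with each sample left out, but not with both changes together (0.51, adjusted p = 0.0641). It was lower for PL vs MG (-1.44, adjusted p = 0.0102) and PL vs LG (-1.23, adjusted p = 0.0313), the latter lost without LG 1, LG 3 or LG 4 (adjusted p 0.0685, 0.0654 and 0.110).

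ATG5 and ATG12 are joined to each other by this machinery. ATG5, which the study's text names, had 20.1, 23.0 and 20.7 units in MG, 16.3, 16.1 and 18.9 in LG, 18.5, 15.2 and 14.4 in EL, 11.2, 16.5 and 15.9 in PL and 19.6, 25.5 and 26.9 in W2. It was higher for W2 vs PL (log2 fold change 0.71 ± 0.19 SE, adjusted p = 0.0135) with each sample left out, while scaling brought the value to -0.01 (adjusted p = 0.989). For PL vs MG it was -0.55 (adjusted p = 0.0497), lost in 11 of 15 fits (adjusted p up to 0.141), and the sign turned after scaling (0.09, adjusted p = 0.690). ATG12 was near the lower end of the table, with 1.05, 1.65 and 1.83 units in MG, 1.35, 1.61 and 0.665 in LG, 1.04, 0.371 and 1.02 in EL, 0.192, 0.239 and 0.547 in PL and 1.54, 1.14 and 1.97 in W2. Its PL samples lay below those of MG, LG and W2 and overlapped with EL. ATG12 was higher for W2 vs PL (1.31, adjusted p = 0.0116) and lower for PL vs MG (-1.29, adjusted p = 0.0169), the latter lost without MG 3 or MG 6 (adjusted p 0.0577 and 0.0582). After scaling its W2 vs PL value was 0.93 (adjusted p = 0.0760).

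ATG4B, the protease that primes and releases ATG8 proteins, had 5.90, 8.72 and 3.92 units in MG, 4.29, 6.75 and 6.75 in LG, 3.72, 7.67 and 5.52 in EL, 0, 3.69 and 1.94 in PL and 5.72, 11.8 and 7.36 in W2. It was listed at 0 in PL 2, a value that may not be a true absence. ATG4B was higher for W2 vs PL (log2 fold change 2.29 ± 0.63 SE, adjusted p = 0.0152), lost without W2 3 (adjusted p = 0.0609), and without PL 2 its value was 1.40 (adjusted p = 0.0297). For PL vs MG it was -1.89 (adjusted p = 0.0435), lost in 13 of 15 fits (adjusted p up to 0.145). ATG10, which attaches ATG12 to ATG5, had 6.67, 8.02 and 6.91 units in MG, 5.11, 5.79 and 7.51 in LG, 6.73, 4.21 and 3.54 in EL, 1.47, 4.21 and 4.67 in PL and 6.57, 7.95 and 4.79 in W2. It was lower for PL vs MG (-1.08, adjusted p = 0.0443), lost in 11 of 15 fits (adjusted p up to 0.132). ATG3, which attaches the ATG8 proteins, ranged from 26.6 to 46.4 units and was not called as deposited in any of the 10 comparisons. ATG16L1, the partner of ATG12 and ATG5, was erratic, with 1.12, 9.88 and 3.48 units in MG, 3.55, 3.96 and 1.56 in LG, 7.95, 2.64 and 6.39 in EL, 6.27, 1.54 and 3.77 in PL and 1.05, 2.90 and 4.22 in W2. Its W2 vs PL value was -0.41 (adjusted p = 0.681), and its samples overlapped in every pair of stages.

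**Figure D5:**
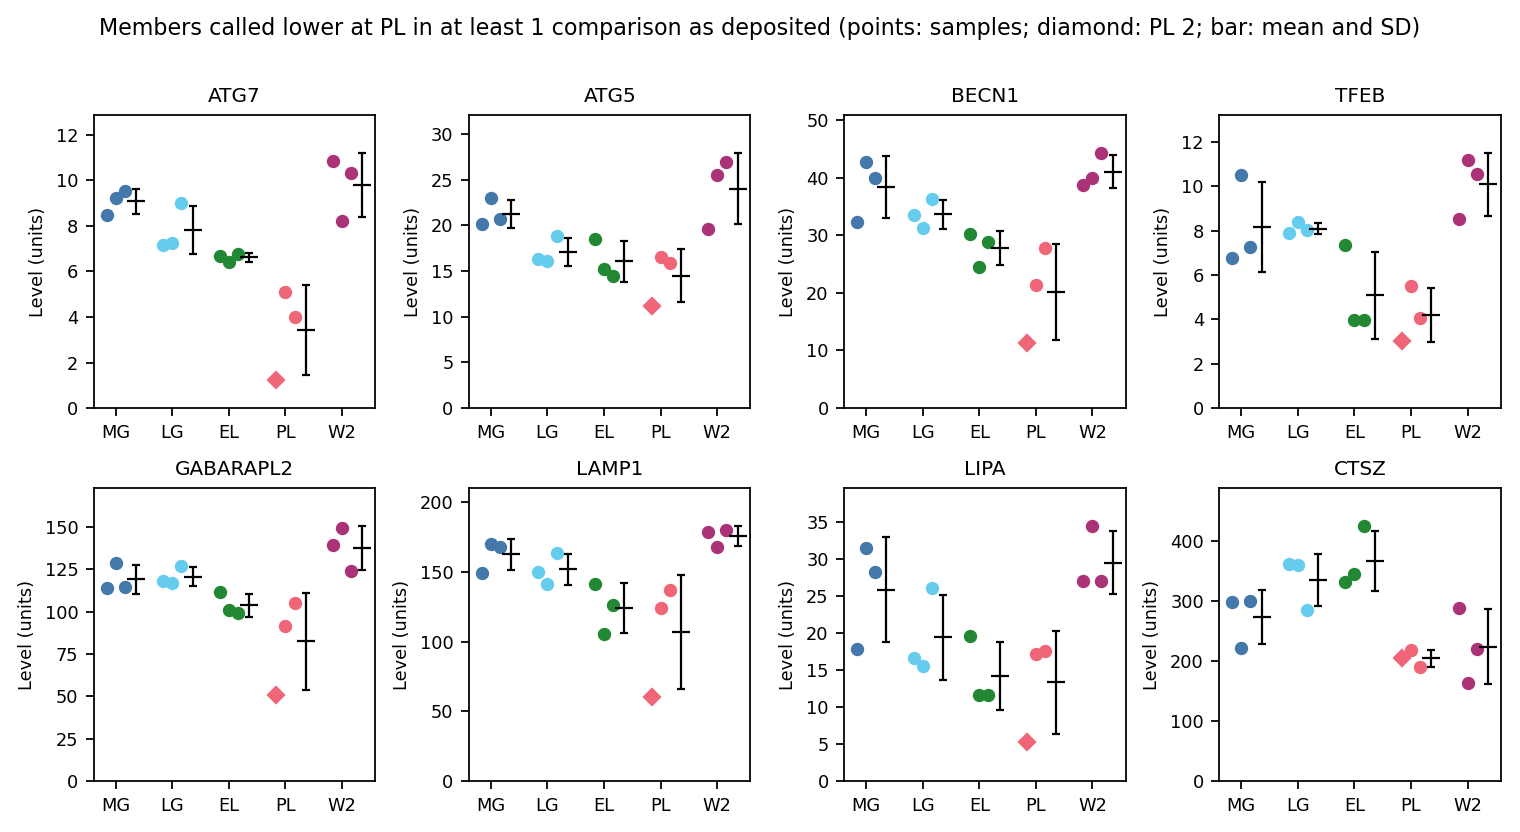
Levels in units, on axes from 0, of 8 members called as lower at PL than at another stage as deposited, in each counted sample by stage. Points are samples, the diamond is PL 2, and bars give mean and SD (n = 3). For ATG7 all PL samples lie below the rest, and for CTSZ the PL and W2 samples overlap.

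Nucleation genes were led by BECN1, the scaffold of the lipid kinase complex (chromosome 12, 20041914 to 20054249). BECN1 had 32.3, 42.7 and 40.0 units in MG, 33.4, 31.3 and 36.2 in LG, 30.2, 24.5 and 28.9 in EL, 11.2, 21.4 and 27.8 in PL and 38.8, 40.0 and 44.2 in W2. It was higher for W2 vs PL (log2 fold change 1.10 ± 0.26 SE, adjusted p = 0.00733) with each sample left out, and lower for PL vs MG (-0.99, adjusted p = 0.0161), lost without MG 3 or MG 6 (adjusted p 0.0630 and 0.0506). After scaling its W2 vs PL value was 0.37 (adjusted p = 0.140). ATG14, which brings that complex to the site of formation, had 6.40, 6.10 and 7.93 units in MG, 7.56, 6.33 and 8.76 in LG, 7.47, 5.46 and 4.80 in EL, 2.32, 0 and 6.32 in PL and 9.05, 9.33 and 7.49 in W2. It was listed at 0 in PL 3, while PL 6 was at 6.32. ATG14 was higher for W2 vs PL (log2 fold change 2.10 ± 0.66 SE, adjusted p = 0.0296), lost without W2 2, W2 3 or W2 6 (adjusted p 0.0699, 0.0786 and 0.0624). Without PL 3 its value was 1.05 (adjusted p = 0.0333). ATG9A, which supplies membrane, and WIPI1 and WIPI2, which bind the lipid made by the kinase, had no call as deposited. ATG9A had 12.1, 18.3 and 16.2 units in PL and 21.4, 19.8 and 22.4 in W2. WIPI1 had 2.50, 3.04 and 6.99 in PL and 2.77, 5.11 and 5.00 in W2, and WIPI2 had 21.5, 47.4 and 56.3 in PL and 49.1, 63.2 and 58.2 in W2, so the PL and W2 samples overlapped for both.

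None of the 5 genes of the initiation complex was called in limma for PL vs MG, PL vs LG, PL vs EL or W2 vs PL as deposited, and 0 had an unadjusted p below 0.05 there. In the same order, 25.2%, 14.7%, 4.62% and 32.8% of all genes and loci were called. The shares at an unadjusted p below 0.05 were 38.3%, 31.6%, 19.0% and 44.0%. The kinase ULK1 had 1.02, 16.8 and 14.6 units in PL, against 5.44 to 14.9 elsewhere. PL thus held both its lowest and its highest value. The scaffold RB1CC1 had 11.0, 27.9 and 29.9 units in PL and 29.9, 29.3 and 30.7 in W2. Its partner ATG13 had 14.9, 27.9 and 29.8 units in PL and 30.7, 28.7 and 27.8 in W2. For ATG101, which stabilises ATG13, the values were 9.06, 16.0 and 11.9 in PL and 18.1, 14.8 and 19.0 in W2. For these 3 genes PL 2 was the lowest sample of the 2 stages, and PL 3 or PL 6 lay within or next to the range of W2. The related kinase ULK2 was listed at 0 in 6 of the 15 samples.

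Of the 3 genes of fusion, ion release and control, TFEB was called (chromosome 7, 36870240 to 36920887). TFEB had 6.76, 10.5 and 7.27 units in MG, 7.88, 8.38 and 8.01 in LG, 7.34, 3.97 and 3.95 in EL, 3.03, 5.49 and 4.07 in PL and 8.51, 11.2 and 10.5 in W2. The mean was highest in W2 and lowest in PL, but the stages ran into each other. PL 2 was the lowest sample, EL 4 and EL 6 lay below PL 3 and PL 6, and MG 3 lay within the range of W2. TFEB was higher for W2 vs PL (log2 fold change 1.20 ± 0.28 SE, adjusted p = 0.00655) with each sample left out and without PL 2 (1.01, adjusted p = 0.0206), and the value after scaling was 0.51 (adjusted p = 0.123). It was lower for PL vs MG (-0.89, adjusted p = 0.0326), lost without MG 3, MG 6, PL 2 or PL 6 (adjusted p up to 0.128), and for PL vs LG (-0.90, adjusted p = 0.0453), lost in 11 of 15 fits (adjusted p up to 0.122). RAB7A, the GTPase of late endosomes, which the study's text names, had 55.0, 72.6 and 78.4 units in MG, 58.6, 67.2 and 56.8 in LG, 53.8, 55.0 and 57.5 in EL, 37.2, 64.8 and 68.1 in PL and 73.1, 76.4 and 73.5 in W2. PL 2 was its lowest sample. PL 3 and PL 6 lay within the range of MG, above EL and below W2, and overlapped with LG. Its W2 vs PL value was 0.44 (adjusted p = 0.127) as deposited and -0.30 (adjusted p = 0.194) after scaling. MCOLN1, the calcium channel of the lysosome, scattered within stages, for example from 1.27 to 15.9 units within MG.

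The 9 cathepsins, the main lysosomal proteases, showed no call for W2 vs PL as deposited, and none had an unadjusted p below 0.05. Of all genes and loci, 32.8% were called there in limma and 44.0% had an unadjusted p below 0.05. Their log2 fold changes were all positive as deposited, with a median of 0.37, and 7 of 9 were negative after scaling. CTSZ (chromosome 17, 59141497 to 59149377) was the exception among stages. It had 299, 222 and 301 units in MG, 362, 359.9 and 286 in LG, 332, 346 and 425 in EL, 206, 219 and 191 in PL and 289, 164 and 220.5 in W2. The 3 PL samples lay within 191 to 219, below all MG, LG and EL samples. CTSZ was lower for PL vs EL (log2 fold change -0.83 ± 0.20 SE, adjusted p = 0.0360), lost in 9 of 15 fits (adjusted p up to 0.133), and lower for PL vs LG (-0.70, adjusted p = 0.0363), lost without LG 1, LG 3, LG 4, PL 2 or PL 6 (adjusted p up to 0.106). After scaling the PL vs EL value was -0.50 (adjusted p = 0.335). The W2 samples overlapped with PL, at 0.09 (adjusted p = 0.761).

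CTSB, a protease linked to cell death in the involuting gland, spanned in PL nearly the whole range of the series: it had 43.4, 389 and 272 units there, against 114 to 288 elsewhere and 217, 236 and 181 in W2. The cathepsins CTSL, CTSD, CTSA and CTSS had their lowest value of the 15 samples in PL 2, at 1.11, 30.5, 15.1 and 2.32 units. PL 3 and PL 6 lay within the range of the other stages for CTSA, CTSL and CTSS. CTSD, the aspartic protease, had 30.5, 81.4 and 71.8 units in PL and 80.3, 71.2 and 68.9 in W2. CTSK, the collagen-degrading cathepsin, had 0.842, 26.0 and 20.3 units in MG, 0.221, 11.0 and 18.7 in LG, 16.2, 10.6 and 9.55 in EL, 5.16, 8.25 and 6.26 in PL and 18.3, 25.0 and 18.3 in W2. MG 1 and LG 1 were below 1 unit while the others of their stages were at 11.0 units or more. Its W2 vs PL value was 1.58 (adjusted p = 0.317). CTSC ranged from 49.8 to 106 units and CTSH from 28.6 to 83.0, with W2 vs PL values of 0.37 (adjusted p = 0.178) and 0.29 (adjusted p = 0.568). The W2 and PL samples of all cathepsins but CTSK overlapped.

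Of the other hydrolases and activators, LIPA and PSAP were higher for W2 vs PL. LIPA, the acid lipase that splits cholesteryl esters and triglycerides, had 17.9, 31.4 and 28.3 units in MG, 16.6, 15.6 and 26.0 in LG, 19.5, 11.6 and 11.6 in EL, 5.32, 17.2 and 17.5 in PL and 27.0, 34.4 and 27.0 in W2. PL 2 was its lowest sample. LIPA was higher for W2 vs PL (log2 fold change 1.28 ± 0.41 SE, adjusted p = 0.0306), lost without PL 2 (adjusted p = 0.0961) and without W2 2, W2 3 or W2 6 (0.0576, 0.0941 and 0.0630), and the value was 0.56 (adjusted p = 0.263) after scaling. PSAP, from which the sphingolipid activators are cut, had 222, 283 and 294 units in MG, 267, 203 and 294 in LG, 228, 150.5 and 219 in EL, 134, 237 and 209.9 in PL and 314, 309 and 266 in W2. Its call (log2 fold change 0.65 ± 0.23 SE, adjusted p = 0.0489) was lost in 12 of the 15 fits (adjusted p up to 0.178), and the sign turned after scaling (-0.09, adjusted p = 0.743). HEXA and GLB1, which remove sugars from gangliosides, had narrow ranges outside PL. HEXA had 51.2, 95.0 and 97.3 units in PL and 70.1, 70.5 and 69.8 in W2, and GLB1 had 11.4, 25.8 and 19.2 in PL and 12.8, 16.0 and 18.3 in W2. PL 3 and PL 6 were the highest and PL 2 the lowest of the 15 samples for both. Their W2 vs PL values were -0.15 (adjusted p = 0.600) and -0.19 (adjusted p = 0.588) as deposited, and after scaling both were lower, at -0.89 (adjusted p = 0.000593) and -0.91 (adjusted p = 0.00405).

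The table lists transcripts, and 22 members have a single one. At the transcript level, 3 of the 133 were called for W2 vs PL (background 7.13% in either direction), each the only transcript of its gene: those of BECN1 and ATG4B were higher and that of NPC2 was lower. Fewer transcripts than gene sums were called, also among genes with 1 transcript, whose values are the same at both levels. Transcripts were fitted and adjusted over all 61773. In that limma fit the W2 vs PL adjusted p was 0.066 for ATG12, 0.0801 for ATG14, 0.127 for GABARAP, 0.0537 for GABARAPL2 and 0.0778 for LAMP1. For genes with several transcripts the split between them varied from sample to sample. The main transcript of ATG7 held 82.2% of the gene over the 15 samples, with 8.36, 9.07 and 9.30 units in MG but 0, 4.68 and 0 in PL and 10.7, 1.08 and 9.94 in W2. It was listed at 0 in PL 2 and PL 6, where the gene summed to 1.23 and 4.00 units over its other transcripts. For ATG5 the main transcript had 15.7, 19.8 and 5.44 units in W2 2, W2 3 and W2 6, and another had 1.88, 2.90 and 12.9. NBR1 has 32 transcripts in the table, none with more than 11.6% of the gene. Whether the authors counted reads by strand was not given in the sources used here, so overlapping genes cannot be told apart.

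Other genes of the same systems came from lists kept apart from the 45, and their counts for W2 vs PL as deposited stand beside a background of 30.4% higher and 2.48% lower. That background includes the assembled loci. Of the 12352 annotated genes of at least 1 unit, 5079 were higher and 261 lower. Of 15 subunits of the proton pump that acidifies the lysosome, 7 were higher for W2 vs PL and the median was 0.48. Its soluble subunits ATP6V1D, ATP6V1F and ATP6V1E1 had W2 vs PL values of 1.24 (adjusted p = 0.000372), 0.99 (adjusted p = 0.000619) and 0.81 (adjusted p = 0.00142). ATP6V1D had 34.6, 52.6 and 55.9 units in PL and 107, 115 and 112 in W2, so the groups did not overlap. Of 25 other lysosomal hydrolases in the table, 7 were higher and 1 lower, with a median of 0.35. The glucuronidase GUSB had 10.7, 14.2 and 10.9 units in PL and 30.4, 23.7 and 29.3 in W2, at 1.19 (adjusted p = 0.000798), and the iduronate sulfatase IDS was at 1.00 (adjusted p = 0.00774). Of 23 other autophagy genes, 5 were higher, with a median of 0.54, and FUNDC1 and BNIP3L, receptors for mitochondria, were at 1.03 (adjusted p = 0.0150) and 0.85 (adjusted p = 0.0292). Among 9 genes of enzyme sorting and protease inhibition, 5 were higher and 1 lower, with a median of 0.75. The cathepsin inhibitor CST3 had 202, 349 and 334 units in PL and 696, 711 and 806 in W2, at 1.36 (adjusted p = 0.000909). The sorting receptor SORT1 was lower, with 10.3, 25.7 and 34.3 in PL and 5.45, 8.65 and 8.78 in W2, at -1.43 (adjusted p = 0.0139). Of 8 TFE factors and their regulators, the GTPase RRAGA was higher, at 0.60 (adjusted p = 0.0125), and the median was 0.53. For the 5 lists the medians lay below that of all 12352 genes (0.77). Without PL 2 the background was 22.9% higher and 3.88% lower. The calls were then 6 higher and 2 lower of 15 proton pump subunits, 4 and 2 of 25 hydrolases, 3 and 1 of 23 autophagy genes and 3 and 3 of 9 sorting and inhibitor genes.

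After median ratio scaling, with a background of 7.42% higher and 5.66% lower, the lists gave other counts for W2 vs PL: 1 higher and 5 lower of 15 proton pump subunits, 6 lower of 25 hydrolases, 2 lower of 23 autophagy genes, and 2 higher and 3 lower of 9 sorting and inhibitor genes. CST3 and ATP6V1D were still higher on that scale (0.61, adjusted p = 0.00362, and 0.50, adjusted p = 0.00124), and SORT1 was still lower (-2.14, adjusted p = 0.00117).

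Markers of several other cell types also differed between PL and W2, in directions that varied with the cell type. The backgrounds for W2 vs PL were 30.4% higher and 2.48% lower as deposited, 7.42% and 5.66% after scaling, and 22.9% and 3.88% without PL 2. At an unadjusted p below 0.05 the share of all genes and loci was 44.0% as deposited and 27.4% after scaling. For W2 vs PL as deposited, 7 of 11 macrophage markers in the table were higher and 1, CD14, was lower. Their sum was 155 to 516 units in PL and 424 to 521 in W2, but CD14 alone gave 9.23, 234 and 298 units in PL and 5.38, 7.90 and 6.63 in W2. CSF1R, a defining receptor of macrophages, had 1.31, 7.46 and 1.81 units in PL and 19.4, 17.2 and 17.5 in W2, and after scaling 4 macrophage markers were higher and 1 lower. Of 4 neutrophil markers 3 were lower, with sums of 9.21 to 47.0 units in PL and 1.30 to 2.79 in W2, where S100A8 was listed at 0 in all 3 samples. The sums in PL and in W2 follow for the other lists. Of 6 fibroblast markers 5 were higher (PL 472 to 1087, W2 1401 to 2632), of 4 T cell markers 3 (PL 6.16 to 17.7, W2 19.6 to 24.0), of 3 endothelial markers 2 (PL 68.9 to 101, W2 112 to 128) and of 6 luminal epithelial markers 1 (PL 837 to 1766, W2 1476 to 1992). Of 3 adipocyte markers 1 was higher and 1 lower (PL 253 to 388, W2 499 to 616), and no basal epithelial marker of 4 was called or had an unadjusted p below 0.05 in limma (PL 755 to 1885, W2 1389 to 1663). After scaling, 2 of 6 fibroblast markers were higher, 0 of 4 T cell and 0 of 3 endothelial markers were called in limma (0 and 1 with an unadjusted p below 0.05), and 1 of 6 luminal, 2 of 4 basal and 1 of 3 adipocyte markers were lower. Without PL 2, 0 of 4 T cell markers passed in limma (2 had an unadjusted p below 0.05), 3 of 6 fibroblast and 1 of 3 endothelial markers were higher, and 2 of 4 basal markers were lower. All 6 milk protein genes were lower (PL 91237 to 285004, W2 5781 to 8140.2 units). The part of these cell types and of the milk protein share in the members' values was not tested.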

How the data were processed

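The tissue was mammary parenchyma of 30 sows, 6 at each of 5 stages, sequenced as mRNA (TruSeq kit, Illumina HiSeq). Per the study's methods, the authors used FastQC and Trimmomatic on the reads, HISAT2 and SAMtools for alignments to Sscrofa11.1, and StringTie to assemble and quantify transcripts. RUVs is also named there, and whether the table holds its output is not given in the sources used here. The deposited table holds 1 FPKM value per transcript and sample, which the authors kept at 0.5 or more in at least 1 stage. The deposited FPKM columns sum to 997480 to 1002643 each, so they keep no depth. The read totals and raw counts that the study describes were not used here, and no interval for counting error is given. Columns of no mapped sample numbered 0.

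From these values, transcripts were matched to genes by identifier through the RefSeq gene table of Sscrofa11.1 (32396 of 61773 transcripts, with 330 more named by gene and 29047 assembled without one), and values were summed per gene or assembled locus. Groups follow the sample titles. The 3 samples of each stage closest to each other were left out. Their pairs differed by a median below 5% over transcripts with a mean of at least 10 units in the stage. Log2(sum + 0.5) was fitted with limma 3.58.1 (R 4.3.3, trend) over 15 samples, 5 stages in 1 fit, for all 26012 genes and loci. Fold changes are on this log2(value + 0.5) scale, which understates those of low genes. P-values were adjusted by Benjamini-Hochberg over all 26012, all tests are two-sided and a call is an adjusted p below 0.05. The fit was also run on simulated data with independent noise per gene and changes planted only in some genes of at least 10 units on average. For W2 vs PL over 26012 genes and loci, it called 22 of 100 planted log2 changes of 1, 67 of 100 of 2, and 6 unchanged genes. The real W2 vs PL comparison called 32.8% of genes and loci, and the shift of PL 2 across genes was not simulated. These counts therefore do not give the power or false calls of the real fit or of low members. With 3 samples against 3 an exact permutation test cannot go below 0.1, so none was run. Tables and plots used Python 3.11.15, pandas 2.3.3, numpy 2.4.6 and matplotlib 3.10.9.

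Values per sample are given for members called in the F test or any comparison, for the 5 largest rises and the 5 largest falls from PL to W2, for the 3 highest levels and for ATG5 and RAB7A. Values of other members were added after they were seen. Of each other list at most 5 genes are named, by the smallest F test p, apart from marker genes named for what they define. The members and the lists (proton pump, other hydrolases, other autophagy genes, enzyme sorting and inhibitors, TFE factors, and markers of 9 cell types) were chosen with earlier results of these data known. Alternatives were other pseudocounts, median ratio scaling, quantile normalization, a filter at 1 unit, annotated genes only, the highest transcript, the near-identical samples included or counted once, the compared stages alone, a replicate block and each sample left out. Median ratio scaling without PL 2 was chosen after seeing the data. Promoter and protein sequences were not used here. The values of 1 gene of the other hydrolases are not reported here.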

Additional observations from a re-analysis of the deposited data

How the results depend on the processing

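Counts are members called of 45. With all 6 samples per stage, which treats near-identical samples as independent, 39 members passed the F test, and the comparisons gave 4 (LG vs MG), 23 (EL vs MG), 27 (PL vs MG), 3 (W2 vs MG), 7 (EL vs LG), 22 (PL vs LG), 10 (W2 vs LG), 17 (PL vs EL), 29 (W2 vs EL) and 28 (W2 vs PL). In the same order the shares of all genes and loci were 75.8% (F test), 14.2%, 39.9%, 58.1%, 8.67%, 21.9%, 53.0%, 24.4%, 38.9%, 50.2% and 63.3%. With these samples counted once as their mean, which nearly equals that of the counted samples, the counts were 21 (F test), 4 (EL vs MG), 20 (PL vs MG), 1 (EL vs LG), 14 (PL vs LG), 1 (W2 vs LG), 8 (PL vs EL), 15 (W2 vs EL) and 24 (W2 vs PL), against 48.9%, 14.7%, 43.8%, 1.16%, 35.9%, 3.11%, 19.1%, 29.2% and 50.5% of all. With the compared stages alone, which leaves 6 samples, they were 0 (PL vs MG), 0 (PL vs LG), 0 (PL vs EL) and 2 (W2 vs PL), against 6.75%, 2.54%, 0.165% and 11.4% of all. The highest transcript in place of the sum gave 1 (F test), 4 (PL vs MG), 1 (PL vs LG) and 0 (PL vs EL), against 9.86%, 16.0%, 8.27% and 2.68%, and annotated genes alone 8 (F test) and 7 (PL vs LG), against 27.0% and 21.6%. For PL vs EL, a pseudocount of 1 gave 1, median ratio scaling 6 and quantile normalization 4, against 4.33%, 5.25% and 5.34%. For W2 vs EL both scalings gave 1, against 0.519% after quantile normalization. Median ratio scaling without PL 2 gave 9 (F test), 12 (PL vs EL) and 3 (W2 vs EL), against 10.6%, 9.87% and 1.76%. For PL vs LG that setting gave 11 members, all higher. Of all 26012 genes and loci, 1523 were higher and 1353 lower there. The cause of these shifts was not tested.

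Leaving out 1 sample at a time, the counts ranged from 1 (without EL 6) to 13 (without PL 2) for the F test, from 2 (MG 3) to 12 (PL 3) in PL vs MG, from 0 (LG 1) to 8 (PL 6) in PL vs LG, from 0 (MG 1) to 7 (PL 2) in PL vs EL, from 0 to 17 (PL 2) for W2 vs EL and from 6 (W2 3) to 16 (PL 3) for W2 vs PL. In these fits the W2 vs PL log2 fold change of ATG16L1 ranged from -0.88 to 0.042 and that of CTSZ from -0.11 to 0.30. Without PL 2 the calls over all 26012 genes and loci moved as well. The F test called 5398, against 4757 with PL 2 kept. For W2 vs EL, 4160 were higher and 266 lower, against 98 and 46. For PL vs EL, 967 were higher and 991 lower, against 202 and 1001. For the other samples left out, the background is not given here. Whether the members' ranges differ from it was not tested.

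The sign of the W2 vs PL log2 fold change turned for many members. Over all 45, 35 were positive and 10 negative as deposited, and 15 and 30 after median ratio scaling. Only some of the members that turned are listed here. CTSZ was at -0.65 after median ratio scaling, -0.44 after quantile normalization and -0.46 after median ratio scaling without PL 2, GABARAP at -0.26, -0.075 and -0.33, and RAB7A at -0.30, -0.18 and -0.39. PSAP was at -0.095 after median ratio scaling and -0.15 without PL 2 as well, and ATG5 at -0.0098 after median ratio scaling. With median ratio scaling without PL 2, ATG10 was at -0.040, GABARAPL2 at -0.072 and LAMP1 at -0.12, and with the highest transcript ATG10 was at -0.37. For PL vs MG, ATG5 was at 0.088, 0.015 and 0.076 under the same 3 scalings. Over all 45 members, 8 were positive and 37 negative for PL vs MG as deposited, and 31 and 14 after median ratio scaling.

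Equal sample numbers name different sows. Deviations of equally numbered samples had a mean correlation of 0.00813 over 19 pairs (-0.0993 to 0.137, 5 over 0.1). Over the 71 other pairs it was -0.00219 (-0.108 to 0.182, 14 over 0.1). Deviations from a stage mean cancel within each stage, which holds the mean over all pairs low by construction. Whether equally numbered samples share a batch was not tested. The replicate block gave 3 members in PL vs MG and 1 each in PL vs LG and in PL vs EL, against 11.5%, 2.33% and 0.869% of all. Read counts were not used here, so the precision of low members such as ATG12, ULK2 and LAMP2 is given by the spread between 3 samples alone.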
